A study of Mus musculus with 30 samples.

Results

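Polycomb group genes encode the subunits of PRC1 and PRC2, a pair of chromatin complexes that keep genes silent. Here 10 of them were followed in 8-cell mouse embryos, namely Ezh1, Ezh2, Eed, Suz12 and Jarid2 of PRC2, and Ring1, Rnf2, Rybp, Pcgf1 and Pcgf6 of PRC1. They were taken by symbol, whatever their values, from a table of 49585 rows, and each of the 10 had 1 row. The question is how their transcripts stood when Yy1 was knocked down. The zinc finger protein YY1 is the mammalian relative of Pho, the fly protein that brings Polycomb complexes to DNA. Of the 30 samples in the series, 4 RNA libraries carry the comparison, and the other 26 (MNase-seq and YY1 CUT&RUN) were not analysed here. All 4 libraries came from embryos of BDF1 x BDF1 crosses cultured in KSOM, an embryo medium. In 2 libraries the embryos had a control knockdown and in 2 a knockdown of Yy1 with the siRNA numbered 1, with no second siRNA among these RNA libraries. The labels do not say whether replicates are separate embryo collections, so part of the scatter between the 4 libraries may be technical. A p-value here weighs a difference against that scatter, moderated toward the scatter of genes at similar levels.

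PRC2 methylates lysine 27 of histone H3. EZH1 or EZH2 is its catalytic subunit, SUZ12 is the scaffold, and EED binds the methylated product. PRC1 ubiquitinates histone H2A through RING1 (RING1A) or RNF2 (RING1B), each paired with a PCGF protein that sets which partners join, and RYBP marks the variant forms. In the preimplantation embryo, H3K27me3 inherited from the oocyte silences the maternal copy of a small group of imprinted genes.

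Values are FPKM, fragments scaled to gene length and library size, so that levels can be compared between genes. The libraries held 29302489 to 34429515 fragments, recovered from the steps between FPKM values, and such depth bears on counting error only. Embryo and pluripotency markers were present, 10 of 10 above a mean of 1 FPKM. They summed to 2591 to 2734 FPKM in control and 2635 to 2778 FPKM in Yy1 knockdown libraries. Most of that was Dppa3, at 2099 and 1985 FPKM in control and 2128 and 2059 FPKM in Yy1 knockdown libraries. By mean 6 of the 10 were higher after Yy1 knockdown and 4 lower, with 0 at a limma adjusted p under 0.05. In each Yy1 knockdown library Klf17 was above either control (10% of the list), and Pou5f1 and Klf4 were below (20%). All genes tested gave 21.8% and 18.9%. Oocyte transcripts summed to 91.9 and 97.1 FPKM in control and 97.2 and 124.5 FPKM in Yy1 knockdown libraries. By mean 10 of the 14 were higher after Yy1 knockdown and 4 lower, with 0 called. Each Yy1 knockdown library was above either control in 4 (28.6%) and below in 0, beside 21.8% and 18.9% of all genes tested. Of these oocyte transcripts, 14 of 14 were above a mean of 1 FPKM. Of 12 cumulus and granulosa cell markers 1, Amhr2, was above it. That list summed to 5.3 and 6.31 FPKM in control and 8.82 and 9.27 FPKM in Yy1 knockdown libraries, with Fshr, Inha, Has2 and Ptx3 listed at 0. Most of that sum was Amhr2, at 5.35 and 4.74 FPKM in control and 7.8 and 7.3 FPKM in Yy1 knockdown libraries. Sperm markers summed to at most 6.39 FPKM and blood markers to at most 1.75 FPKM. The part of any of these in the differences below was not tested. In RNA from whole embryos, fewer cells of a kind and less RNA per cell cannot be told apart.

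Yy1 stood at 77.7 and 71.2 FPKM in the controls and at 5.89 and 7.98 FPKM after Yy1 knockdown. The knockdown is therefore visible in both libraries that carry its label, 10.7-fold lower by group mean, with a limma adjusted p of 0.0556 (5.42e-05 to 0.809 over the alternatives, and past the threshold of 0.05 in 4 of them).

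The 10 Polycomb transcripts did not move together. By group mean 5 were higher and 5 lower after Yy1 knockdown, and their median log2 fold change was 0.01, against 0.02 over all 12120 genes tested. None of the 10 was called by limma at an adjusted p of 0.05, and over all genes limma called 0% (0 genes, with 1079 at an unadjusted p under 0.05). Tested another way, limma-voom on recovered fragments called 13 genes and protein-coding genes alone gave 14, with 0 of the 10 among them. At an unadjusted p under 0.05, Suz12 and Jarid2 were lower and 0 of the 10 higher, where 4.69% of all genes were lower and 4.22% higher. For Suz12 and Jarid2 each Yy1 knockdown library was below either control, and for Pcgf6 each was above. Among all genes tested 18.9% were separated in the lower direction and 21.8% in the higher, so 2 and 1 of 10 are close to the background.

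**Figure D1:**
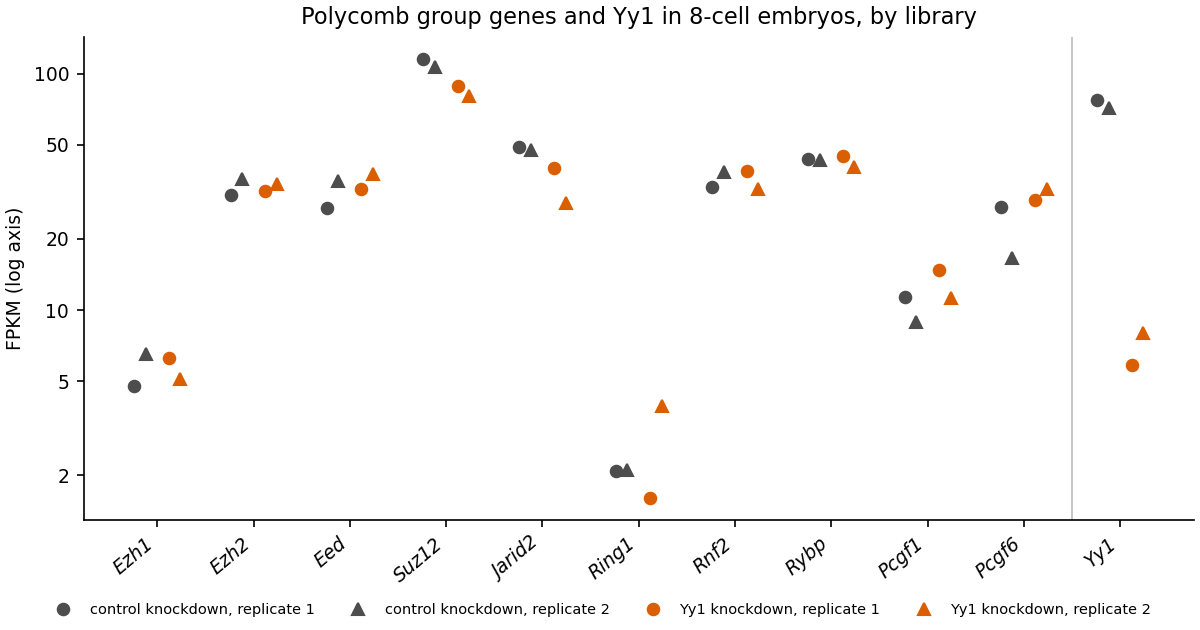
FPKM on a log axis for the 10 Polycomb genes and, right of the line, Yy1, with 1 point per library (circles replicate 1, triangles replicate 2, grey control and orange Yy1 knockdown). Suz12 sits between 80.4 and 115.6 FPKM and Ring1 between 1.61 and 3.93 FPKM, and for Suz12 and Jarid2 the orange points lie below the grey ones.

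Levels spread widely within each complex. By control mean the order was Suz12, Jarid2, Rybp, Rnf2, Ezh2, Eed, Pcgf6, Pcgf1, Ezh1 and Ring1. Suz12 was at the percentile 94.1 of the genes tested and Ring1 at 21.9. Of neighbours in this order, Jarid2 and Rybp overlapped over the 4 libraries, as did Rnf2 and Ezh2, Ezh2 and Eed, and Eed and Pcgf6. Suz12 and Jarid2 did not, nor did Rybp and Rnf2, Pcgf6 and Pcgf1, Pcgf1 and Ezh1, or Ezh1 and Ring1.

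In the PRC2 core, the scaffold transcript was lower in both Yy1 knockdown libraries, without passing the test over all genes, and those of the catalytic subunits overlapped between the groups. Suz12, on chromosome 11 from 79993106 to 80034123 (GRCm38, also called mm10), had 115.6 and 107.1 FPKM in the controls and 88.3 and 80.4 FPKM after Yy1 knockdown. The groups did not overlap. The means were 111.3 ± 6.03 and 84.3 ± 5.58 FPKM (SD, n = 2 each), 1.32-fold lower. On the log2(FPKM + 1) scale the difference was -0.40 with a 95% interval of -0.73 to -0.06, and its limma adjusted p was 0.532 (0.283 to 0.84 over the alternatives). These values rest on 11650 to 19679 fragments, so counting adds little to the spread between libraries.

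Ezh2, the main methyltransferase subunit of dividing cells, had 30.7 and 35.8 FPKM in the controls and 31.9 and 34.0 FPKM after Yy1 knockdown. The Yy1 knockdown values lay inside the control range. Its log2 difference was -0.01 with an interval of -0.39 to 0.37 (limma adjusted p = 0.989). Ezh1, the paralogue with weaker methyltransferase activity, had 4.77 and 6.5 FPKM against 6.25 and 5.11 FPKM, again within the control range, with a difference of 0.02 and an interval of -0.54 to 0.58. Ezh2 made up 84.6 and 86.5% of the summed Ezh1 and Ezh2 level in control and 83.6 and 86.9% in Yy1 knockdown libraries, and the ranges of the groups overlapped. With 2 libraries against 2, an exact two-sided permutation test of such a single value cannot give a p below 0.333.

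Eed, the reader of H3K27me3, had 26.98 and 35.1 FPKM in control and 32.6 and 37.7 FPKM in Yy1 knockdown libraries, and the groups overlapped. Its difference was 0.18 with an interval of -0.28 to 0.64 (limma adjusted p = 0.791). It was 0.0006 without control replicate 1 and 0.37 without control replicate 2. Set against its partners, Suz12 was 2.99 and 3.77 times Ezh2 in control and 2.37 and 2.77 times Ezh2 in Yy1 knockdown libraries. Its ratio to Eed was 3.05 and 4.28 in control and 2.13 and 2.71 in Yy1 knockdown libraries. Both ratios were lower in each Yy1 knockdown library than in either control, and they share Suz12, so they are not independent of it. The ratio of Eed to Ezh2, without Suz12, was 0.879 and 0.979 in control and 1.02 and 1.11 in Yy1 knockdown libraries, higher in each. The 4 core transcripts summed to 178 and 184.4 FPKM in control and 157.2 and 159 FPKM in Yy1 knockdown libraries. Without Suz12 the sum was 62.4 and 77.4 FPKM against 70.7 and 76.8 FPKM, and the groups overlapped.

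Jarid2 encodes an accessory subunit that helps PRC2 bind chromatin and marks the form called PRC2.2. It lies on chromosome 13 from 44730774 to 44921643. Its transcript stood at 49.1 and 47.5 FPKM in the controls and at 39.98 and 28.5 FPKM after Yy1 knockdown. The controls were close together and both Yy1 knockdown libraries were below them, replicate 2 the most. The means were 48.3 ± 1.11 and 34.2 ± 8.14 FPKM (SD, n = 2 each), 1.41-fold lower. The log2 difference was -0.51 with an interval of -0.99 to -0.02 and a limma adjusted p of 0.556 (0.304 to 0.84 over the alternatives). Without Yy1 knockdown replicate 2 the difference was -0.27.

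RefSeq promoter windows (GRCm38.p6, 250 bases before to 50 after a transcript start) were found for 8 of the 10 genes, with 9 windows in all. Rybp and Pcgf1 had none. The letters GCCATNTT, the core of the YY1 motif, and their reverse complement AANATGGC were searched on both strands. They occurred in 1 of the 9 windows, that of the first of 2 annotated starts of Jarid2, and in 6.05% of all 32851 windows. The match covers the bases 14 to 7 before that start, and the window of the other Jarid2 start has no match. A match is a description of letters, not of binding, and YY1 occupancy was not measured in the table used here. The promoters of Jarid2 and Suz12, the genes with lower transcripts in both Yy1 knockdown libraries, are shown as the 250 bases before the start, on the plus strand, with the motif letters in capitals.
Jarid2, chr13:44730524-44730773: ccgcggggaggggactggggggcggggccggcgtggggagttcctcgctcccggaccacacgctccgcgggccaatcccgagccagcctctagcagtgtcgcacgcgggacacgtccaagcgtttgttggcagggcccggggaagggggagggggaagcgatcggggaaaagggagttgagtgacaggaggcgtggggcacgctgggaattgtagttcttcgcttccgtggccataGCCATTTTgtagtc
Suz12, chr11:79992856-79993105: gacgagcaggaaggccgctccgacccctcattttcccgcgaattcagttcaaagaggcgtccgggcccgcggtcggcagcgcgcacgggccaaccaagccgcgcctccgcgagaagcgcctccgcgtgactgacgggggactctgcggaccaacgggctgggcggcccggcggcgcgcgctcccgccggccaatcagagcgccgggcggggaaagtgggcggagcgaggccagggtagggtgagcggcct
Suz12 has no match in its window. GC content was 54.7 to 74.0% in the 9 windows, against a median of 52.7% over all windows.

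Of the remaining PRC2 genes, 9 of 10 passed the filter of 1 FPKM, 2 higher and 7 lower by mean, with a median of -0.09 and 0 called. Rbbp4, a histone chaperone subunit with a close paralogue in Rbbp7, had 14.6 and 15.5 FPKM in control and 13.6 and 10.8 FPKM in Yy1 knockdown libraries. Aebp2, like Jarid2 a PRC2.2 subunit, had 37.3 and 36.2 FPKM against 34.3 and 29.0 FPKM. In both genes the Yy1 knockdown libraries were below either control. Mtf2, a Polycomb-like subunit of the alternative form PRC2.1, had 54.2 and 35.3 FPKM against 40.7 and 29.4 FPKM, and the groups overlapped. Its paralogue Phf1 had 3.62 and 4.64 FPKM against 5.11 and 4.79 FPKM. The limma adjusted p of the 4 was between 0.674 for Rbbp4 and 0.778 for Phf1. Among the 9, each Yy1 knockdown library was above either control in 1 (11.1%) and below in 2 (22.2%). All genes tested gave 21.8% and 18.9%.

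The catalytic pair of PRC1 was dominated by Rnf2. Rnf2 had 33.2 and 38.5 FPKM in control and 38.9 and 32.6 FPKM in Yy1 knockdown libraries, with the groups crossing. Its log2 difference was -0.01 with an interval of -0.42 to 0.41 (limma adjusted p = 0.994). Ring1 had 2.1 and 2.11 FPKM in control and 1.61 and 3.93 FPKM in Yy1 knockdown libraries. The Yy1 knockdown libraries lay on opposite sides of the controls, and without replicate 2 of that group the difference turned from 0.21 to -0.25. These low values rest on 178 to 373 fragments per library. Rnf2 was 94.1 and 94.8% of the summed pair in control and 96 and 89.2% in Yy1 knockdown libraries.

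Rybp, which links RING1 or RNF2 to the variant forms of PRC1, varied the least between libraries of the 10 genes relative to its level. It had 43.6 and 43.2 FPKM in control and 44.8 and 40.3 FPKM in Yy1 knockdown libraries. The difference was -0.03 with an interval of -0.37 to 0.32 (limma adjusted p = 0.964). Its paralogue Yaf2 stood far lower, at 3.72 and 1.85 FPKM in control and 3.29 and 4.92 FPKM in Yy1 knockdown libraries.

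Both PCGF members had higher means after Yy1 knockdown, without passing the test. Pcgf6, the PCGF protein of the form PRC1.6 that acts at germline genes, had 27.3 and 16.6 FPKM in control and 29.3 and 32.6 FPKM in Yy1 knockdown libraries. The groups did not overlap, but control replicate 1 came close to the lower Yy1 knockdown library, and after median-ratio scaling they overlapped. The means were 22.0 ± 7.53 and 30.9 ± 2.31 FPKM (SD, n = 2 each). The log2 difference was 0.51 with an interval of -0.11 to 1.14 (limma adjusted p = 0.616), and without control replicate 2 it was 0.17. Pcgf1, the PCGF protein of PRC1.1, which KDM2B takes to CpG islands, had 11.4 and 8.86 FPKM against 14.8 and 11.3 FPKM. The groups overlapped narrowly, and the difference was 0.33 with an interval of -0.21 to 0.87 (limma adjusted p = 0.678). Leaving out 1 library moved it to between 0.15, without Yy1 knockdown replicate 1, and 0.52, when replicate 2 of that group was left out.

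**Figure D2:**
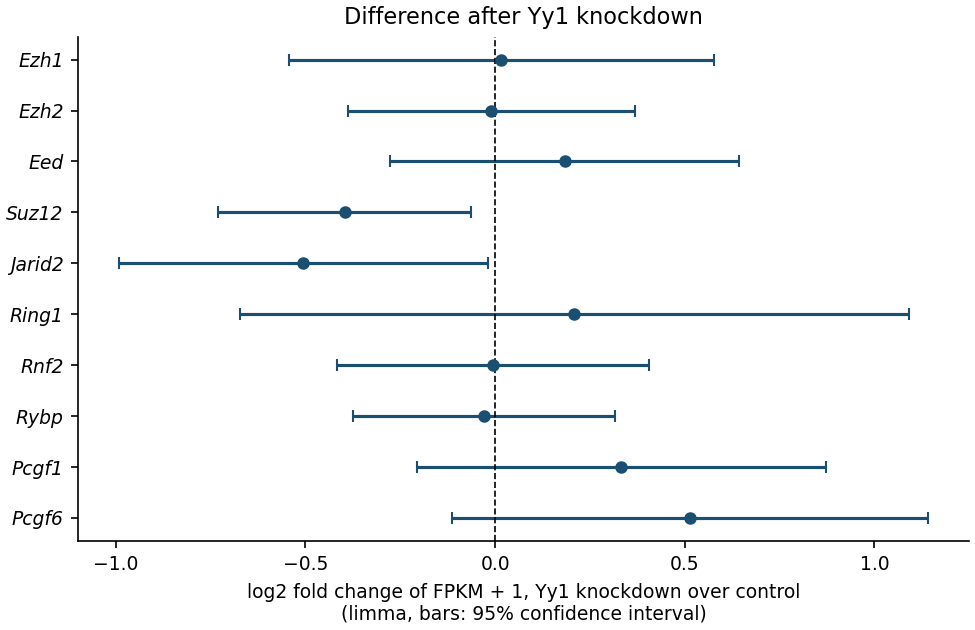
Difference between Yy1 knockdown and control on the log2(FPKM + 1) scale for the 10 genes, with limma's 95% confidence interval, not adjusted for the number of genes, as bars. The intervals of Suz12 (-0.73 to -0.06) and Jarid2 (-0.99 to -0.02) lie below 0, and the other 8 cross it.

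The family of 6 PCGF genes, which give PRC1 its forms, summed to 99.5 and 98.9 FPKM in control and 108.9 and 109.9 FPKM in Yy1 knockdown libraries. Bmi1, the PCGF protein of canonical PRC1 also called PCGF4, had 26.8 and 30.6 FPKM in control and 21.5 and 21.7 FPKM in Yy1 knockdown libraries. Its share of the family was 26.9 and 30.9% in control and 19.8% in each Yy1 knockdown library. Pcgf2, the other canonical PCGF gene, had 4.56 and 3.79 FPKM against 0.791 and 2.7 FPKM, a share of 4.59 and 3.83% against 0.726 and 2.46%. Its log2 difference depended on single libraries, at -0.48 without Yy1 knockdown replicate 1 and at -1.53 when replicate 2 of that group was left out. Pcgf3, of a variant form, had 7.19 and 8.41 FPKM against 6.99 and 6.85 FPKM, a share of 7.23 and 8.5% against 6.42 and 6.24%. All 3 genes, canonical and variant, were lower in each Yy1 knockdown library than in either control, Pcgf3 by the least. In FPKM, Pcgf5 and Pcgf6 were higher in each. Among all genes tested 18.9% were separated in the lower direction and 21.8% in the higher. Pcgf5, also of a variant form, had 22.3 and 30.7 FPKM against 35.5 and 34.8 FPKM, and its share was 22.4 and 31% against 32.6 and 31.7%. Pcgf6 held 27.4 and 16.8% in control and 26.9 and 29.6% in Yy1 knockdown libraries, and Pcgf1 11.5 and 8.96% against 13.6 and 10.2%, both overlapping. The limma adjusted p was 0.555 for Pcgf2, 0.556 for Bmi1, 0.604 for Pcgf5 and 0.83 for Pcgf3. Shares within a library add up to the whole, so they are not independent of one another.

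**Figure D3:**
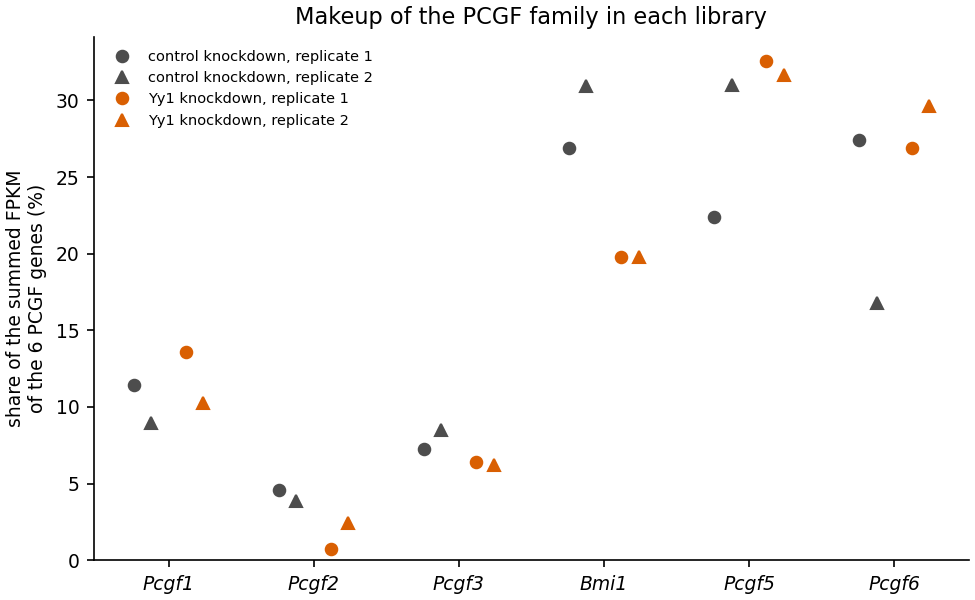
Share of each PCGF gene in the summed FPKM of the 6, in percent, with 1 point per library (circles replicate 1, triangles replicate 2, grey control and orange Yy1 knockdown). Bmi1 holds 26.9 and 30.9% in control and 19.8% in both Yy1 knockdown libraries, and Pcgf6 varies between the controls from 16.8 to 27.4%.

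Across the other PRC1 subunits, 24 of 28 passed the filter, 15 higher and 9 lower by mean, with a median of 0.07 and 0 called. In 9 of them (37.5%) each Yy1 knockdown library was above either control, and in 5 (20.8%) each was below, where all genes tested gave 21.8% and 18.9%. Bmi1 and Pcgf2 were the 2 with an unadjusted p under 0.05, both lower, where 4.69% of all genes were lower and 4.22% higher. Phc1, a Polyhomeotic subunit of canonical PRC1, had 3.28 and 3.46 FPKM in control and 4.45 and 5.14 FPKM in Yy1 knockdown libraries (limma adjusted p = 0.616). Kdm2b, the CpG-binding partner of PCGF1, had 30.3 and 31.4 FPKM against 27.7 in each Yy1 knockdown library (limma adjusted p = 0.77). Kdm2b was picked after its values were seen, as were Yaf2 and Pcgf3.

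Among 8 partners of PCGF6 in PRC1.6, 3 were higher and 5 lower, with a median of -0.02 and 0 called. Each Yy1 knockdown library was above either control in 1 of the 8 (12.5%) and below in 3 (37.5%). All genes tested gave 21.8% and 18.9%. E2f6, the repressor that binds E2F sites, had 7.41 and 6.88 FPKM in control and 3.65 and 3.64 FPKM in Yy1 knockdown libraries. The means were 7.15 and 3.64 FPKM, 1.96-fold lower, from 258 to 618 fragments, and replicates lay close together in both groups. Its log2 difference was -0.81 with an interval of -1.27 to -0.35 and a limma adjusted p of 0.462 (0.182 to 0.84 over the alternatives). L3mbtl2, an MBT domain subunit, had 13.4 and 13.8 FPKM against 10.5 and 10.1 FPKM (adjusted p = 0.574), also lower in both. Max, the DNA-binding partner of MGA, had 14.5 and 12.3 FPKM against 16.3 and 16.8 FPKM (0.647), and Tfdp1 17.4 and 18.4 FPKM against 17.1 and 15.5 FPKM (0.827).

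Enzymes that act against Polycomb marks, with the PR-DUB complex that removes ubiquitin from H2A, had 14 of 16 genes above the filter, 6 higher and 8 lower, with a median of -0.11 and 0 called. Asxl1, which activates the PR-DUB enzyme BAP1, had 7.97 and 7.71 FPKM in control and 5.96 and 5.85 FPKM in Yy1 knockdown libraries. Ogt, the O-GlcNAc transferase, had 5.36 and 7.95 FPKM against 3.87 and 4.77 FPKM. Foxk1, a forkhead partner of PR-DUB, had 1.93 and 2.72 FPKM against 1.62 and 0.828 FPKM. In these 3 genes the Yy1 knockdown libraries were below either control. Kdm1b, a histone H3K4 demethylase of the oocyte, had 4.24 and 5.46 FPKM against 5.84 and 7.12 FPKM, above both. Their limma adjusted p lay between 0.611 and 0.67. Each Yy1 knockdown library was above either control in 3 of the 14 (21.4%) and below in 4 (28.6%). All genes tested gave 21.8% and 18.9%.

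The relatives of the fly Pho complex include Yy1 and Zfp42. Zfp42, a relative of Yy1, had 30.7 and 30.2 FPKM in control and 5.43 and 3.99 FPKM in Yy1 knockdown libraries (limma adjusted p = 0.0928). That p ran from 0.00154 with limma-voom to 0.84 without control replicate 2, and it passed the threshold in 3 alternatives, limma-voom, protein-coding genes only and the filter of 5 FPKM. Sfmbt1, an MBT domain gene related to the fly partner of Pho, had 2.43 and 3.38 FPKM against 3.59 and 3.53 FPKM, and L3mbtl3 9.52 and 7.22 FPKM against 8.77 and 5.99 FPKM. Of the 9 genes in this list 5 passed the filter, and Yy2 was listed at 0.

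Among 6 genes with a row that are known for silencing of the maternal copy by H3K27me3, 4 passed the filter, 2 higher and 2 lower, with 0 called. Jade1, a subunit of histone acetyltransferase complexes, had 4.2 and 6.81 FPKM in control and 1.94 and 1.87 FPKM in Yy1 knockdown libraries. Gab1, a signalling adaptor, had 12.5 and 11.1 FPKM against 7.92 and 5.35 FPKM. For both the Yy1 knockdown libraries were below either control, with limma adjusted p of 0.466 and 0.518. They were 2 of the 4 (50%), and 0 were above, where all genes tested gave 18.9% below and 21.8% above. Slc38a4 had 0.691 and 1.53 FPKM against 1.56 and 0.889 FPKM. Xist, the RNA that coats the inactive X, had 7.12 and 25.5 FPKM in the controls and 15.8 and 17.9 FPKM after Yy1 knockdown, so the controls stood apart from each other by more than the groups did. The table does not separate maternal from paternal transcripts.

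Developmental regulators that PRC2 silences in many cell types were mostly at low levels. Low levels are common here, as 12120 of all 49585 rows reached a mean of 1 FPKM. Per library 23329 to 24755 rows were above 0. Of 73 such regulators (39 Hox genes), 65 were below a mean of 1 FPKM and 20 were listed at 0 in all 4 libraries. The highest were Hand1, at 91.7 and 54.1 FPKM in control and 160.4 and 54.5 FPKM in Yy1 knockdown libraries, Gata6 at 50.7 to 65.5 FPKM and Gata4 at 10.6 to 25.7 FPKM over the 4 libraries. In these 3, named for their level, the groups overlapped. The 8 that passed were 5 higher and 3 lower by mean, with a median of 0.17 and 0 called. Each Yy1 knockdown library was above either control in 1 of the 8 (12.5%) and below in 0. All genes tested gave 21.8% and 18.9%. Hoxb9 had 0.937 and 0.878 FPKM in control and 1.55 and 1.05 FPKM in Yy1 knockdown libraries, and Cdkn1c, a cell cycle inhibitor gene, had 1.67 and 1.09 FPKM against 1.57 and 3.55 FPKM. Gsc had 3.28 and 1.48 FPKM against 1.74 and 1.48 FPKM. The limma adjusted p of Hoxb9, Cdkn1c and Gsc was between 0.686 and 0.806, and in 1 of them, Hoxb9, the groups did not overlap.

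**Figure D4:**
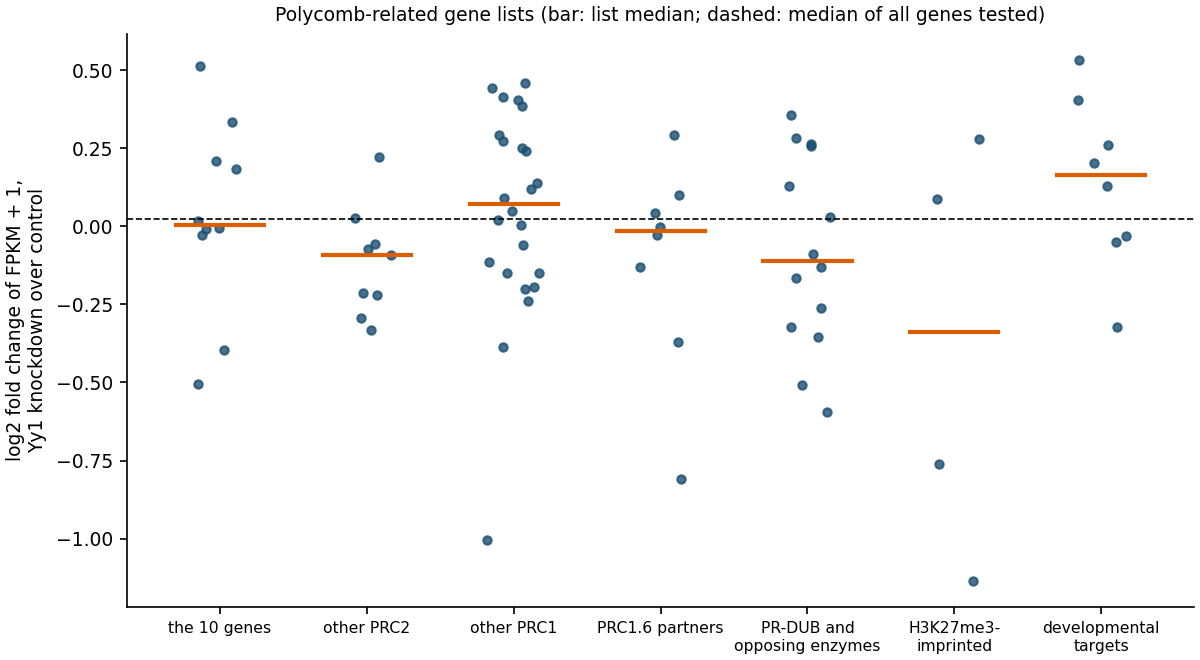
Log2 fold change of FPKM + 1, Yy1 knockdown over control, for each gene that passed the filter in 7 lists, with the list's median as a bar and the median of all genes tested (0.02) as a dashed line. The 10 Polycomb genes lie on both sides of 0 with a median of 0.01, and the points below -0.7 are Pcgf2, E2f6, Gab1 and Jade1.

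Over PRC1 and PRC2 genes together, including PRC1.6 partners, 51 of 56 passed the filter. Of these 25 were higher and 26 lower by mean, and 12 (23.5%) were separated in each direction, where all genes tested gave 21.8% higher and 18.9% lower. The median was -0.0035 and 0 were called. In either direction, 1079 of all 12120 genes tested had an unadjusted p under 0.05 in the limma fit. Of the 51, 0 were higher at that level (4.22% of all genes) and 5 were lower (9.8%, against 4.69% of all genes). These 5 are Suz12, Jarid2, Bmi1, Pcgf2 and E2f6.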

How the data were processed

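Per the labels' protocols, libraries were made from total RNA with the SMART-Seq stranded kit. The submitters' processing notes name, among others, HISAT2 2.2.1 and featureCounts, with Trim Galore 0.6.7, SAMtools 1.4.1 and the mm10 build, without saying which assay each served. The sources used here do not give the annotation, strand setting or treatment of multi-mapping reads. Genes with near-identical copies or antisense partners are therefore uncertain. Whether this reaches the paralogues Rbbp4 and Rbbp7 was not tested. The values used are FPKM as deposited by the authors. Library totals and whole fragment counts were recovered from their steps (12117 of 12120 genes gave whole counts within 0.02 fragments), and replicate counts differed by more than sampling noise, with a mean chi-square per gene of 75.6 for the controls and 50.6 for the Yy1 knockdown pair.

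Genes whose mean reached 1 FPKM were tested with limma 3.58.1 in R 4.3.3 on log2(FPKM + 1) with group alone and a mean-variance trend. Benjamini-Hochberg adjustment ran over all 12120 genes, with a threshold of 0.05. This scale understates changes of low genes. The scripts were tested on simulated data. Alternatives changed the pseudocount (0.1), the filter (none or 5 FPKM), the scaling (median-ratio or quantile), the moderation, the replicate block, the genes tested (protein-coding only), the test (limma-voom on recovered fragments) and the libraries (leaving out each). Locations and promoters are from RefSeq. The 10 genes, the lists and the alternatives were chosen with earlier results of these data known. Named besides the 10 and Yy1 are up to 4 genes per list by smallest p. Outside this rule, and chosen after values were seen, are Kdm2b, Yaf2, Pcgf3, Dppa3, Hand1, Gata6, Gata4 and the genes named as listed at 0. Of the developmental list, 1 gene taken by this rule is not reported here. The PCGF shares, the other ratios than Ezh2 to Ezh1 and Rnf2 to Ring1, and the summed levels were added after values were seen. Genes matched through RefSeq synonyms were Epop, Eloa, Ezhip and Phf17, an older name of Jade1 that was counted once with it.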

Additional observations from a re-analysis of the deposited data

How the results depend on the processing

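Over 14 alternatives, 128 of 139 values of the 10 Polycomb genes kept their direction and none passed the threshold (lowest limma adjusted p 0.283). Changing the filter, the replicate block, the moderation or the genes tested leaves each fold change as it was. No direction could turn there, so part of the 128 was fixed in advance. The 11 values that turned came with median-ratio scaling, quantile normalization or a library left out. Suz12, Jarid2, Eed, Pcgf1 and Pcgf6 kept their direction under every alternative run. Leaving out each library still gave 0.0006 to 0.37 for Eed and 0.15 to 0.52 for Pcgf1. For Pcgf6 it gave 0.17 to 0.85 and for Jarid2 -0.74 to -0.27. Small differences turned: Ezh1 to -0.022 with median-ratio scaling, and Ezh2 to 0.0066 and Rnf2 to 0.00601 with quantile normalization. Leaving out each library gave -0.17 to 0.21 for Ezh1, -0.12 to 0.098 for Ezh2, -0.25 to 0.67 for Ring1, -0.13 to 0.12 for Rnf2 and -0.10 to 0.046 for Rybp. The median of the 10 ranged there from -0.065 to 0.13, the latter without control replicate 2. Such fits keep 1 library in a group and assume that it varies like the other group. The count of called genes was 4 with a filter of 5 FPKM, 1 with robust eBayes, 14 with protein-coding genes only and 13 with limma-voom. The 5 FPKM filter and the protein-coding set tested fewer genes, and limma's moderation was also refitted on each. The cause of these counts was not tested. Genes at an unadjusted p under 0.05 numbered 1793 with no filter and 633 with the 5 FPKM filter, and 680 to 1034 without 1 library. With median-ratio scaling the split was 394 higher and 703 lower, against 511 and 568. Separated genes numbered 9364 with no filter and 2795 with the 5 FPKM filter, against 4937, and separated Polycomb genes 2 with median-ratio scaling against 3. Same-numbered libraries deviated together only weakly (correlation 0.0994), and the labels give no shared source; with a replicate block 0 genes were called and 1187 had an unadjusted p under 0.05. At 178 to 1584 fragments, Ring1, Pcgf1 and Ezh1 carry the most counting error of the 10 over the libraries together. In control replicate 2 alone, Pcgf6 had 1096 fragments, fewer than the 1519 of Ezh1.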
